A study of Caenorhabditis elegans with 20 samples.

Results

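The 34 genes described here encode the machinery of DNA replication, mitosis and the centrosome in the nematode *Caenorhabditis elegans*. They were taken from a list of gene names: *cdk-1*, the cyclins and *cki-1* (8 genes), DNA replication and nucleotide supply (9), mitotic kinases, checkpoint and spindle (7), centromere and kinetochore (4) and centrosome (6). Each of the 34 was found among the 46284 genes of the expression table, and each passed the filter on low values together with 15957 genes in all. The table gives FPKM, fragments counted per length of transcript and scaled to the mapped fragments of the library, for 20 samples of whole worms that were grown at 20°C on *E. coli* OP50 and taken on day 1 of adulthood. There were 5 strains derived from Bristol N2, with 4 replicates each: wild-type, *hecd-1(tm2371)*, *bcat-1(hh58)*, *ivd-1(tm6784)* and a strain that carries both of the latter mutations, *ivd-1(tm6784); bcat-1(hh58)*, here called the double mutant.

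*ivd-1* encodes isovaleryl-CoA dehydrogenase, which acts in leucine breakdown, and tm6784 is a loss-of-function allele of it. *bcat-1* encodes the aminotransferase that starts the breakdown of all branched-chain amino acids. Its allele hh58 carries a premature stop codon made by CRISPR-Cas9 and stays viable as a homozygote, with slower development, fewer offspring and partly lethal embryos, and the study adapted synchronisation or collection to each strain's generation time. *hecd-1* encodes an E3 ubiquitin ligase and served the study as a mutant with impaired ubiquitin-dependent degradation but no lesion in amino acid breakdown. Each sample is RNA of a pellet of many worms, and the study collected its replicates in independent experiments. As a check of the labels, *ivd-1* lay at 206 to 230.4 FPKM in wild-type, at 149 to 162 in *ivd-1(tm6784)* and at 59.7 to 65.9 in the double mutant. It also lay at 123 to 127 FPKM in *bcat-1(hh58)*, which has no lesion in *ivd-1*, below its level in *ivd-1(tm6784)*, so the *ivd-1* level alone does not separate these labels. *hecd-1* lay at 21.5 to 23.3 FPKM in *hecd-1(tm2371)* and at 32.2 to 34.4 in the other strains. The hh58 allele did not lower its own transcript, since *bcat-1* lay at 197 to 218 FPKM in *bcat-1(hh58)* and at 123 to 145 in wild-type, so these values do not check that label.

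In a dividing cell, cyclin D and cyclin E with their kinases bring about the entry into S phase, the MCM helicase and the PCNA clamp copy the DNA, and CDK-1 with B-type cyclins drives mitosis, in which kinetochores attach chromosomes to a spindle that centrosomes organise. CKI-1 is the brake, an inhibitor of cyclin-dependent kinases that keeps cells in G1. The somatic cells of an adult *C. elegans* have stopped dividing. Germline stem cells and the embryos held in the uterus still divide, and the germline loads oocytes with mRNAs of this machinery for the first embryonic divisions. In RNA of whole worms, fewer cells of a type and less RNA per cell cannot be told apart.

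By mean FPKM, 33 of the 34 genes lay below wild-type in *ivd-1(tm6784)* worms and 27 did so in *bcat-1(hh58)*, while 27 lay above it in the double mutant and all 34 in *hecd-1(tm2371)*. The 7 with a mean above wild-type in *bcat-1(hh58)* were *cyb-1*, *cyb-3*, *cyd-1*, *mcm-4*, *mcm-5*, *rnr-2* and *cki-1*. Of the 34 genes, 29 were highest in *hecd-1(tm2371)*, and 4 (*cyd-1*, *mcm-5*, *mcm-7* and *rnr-1*) in the double mutant. The lowest mean was in *ivd-1(tm6784)* for 23 genes and in *bcat-1(hh58)* for 10. *cki-1* was lowest in wild-type and highest in *bcat-1(hh58)*.

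**Figure D1:**
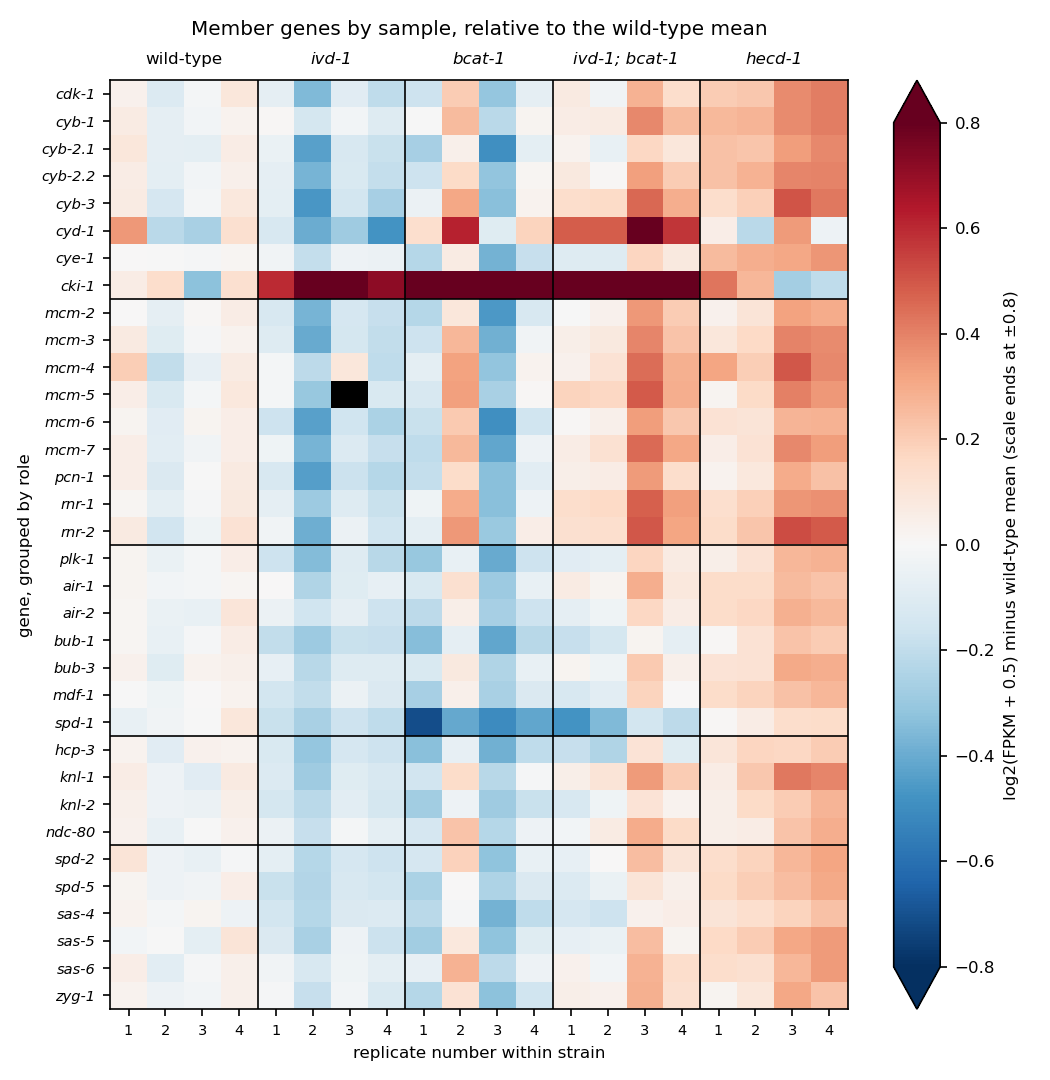
Heat map of the 34 genes (rows, grouped by role) in the 20 samples (columns, replicates 1 to 4 of each strain), coloured by log2(FPKM + 0.5) minus the wild-type mean of the gene. The black cell is *mcm-5* in *ivd-1(tm6784)* replicate 3, listed at 0 FPKM, and the dark red row is *cki-1*.

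Against wild-type, 33 of the 34 fold changes were below 0 in *ivd-1(tm6784)*, with a median log2 fold change of -0.16, against a median of 0.11 over all genes tested. The fold changes here are on the log2(FPKM + 0.5) scale, which understates the change of genes with low values. A gene was called where limma's Benjamini-Hochberg adjusted p over all genes was 0.05 or less. In *ivd-1(tm6784)*, 3 members were called lower (*bub-1*, *spd-1* and *spd-5*), where 2.88% of all genes were, and 1 was called higher (*cki-1*), where 19.9% were. In *bcat-1(hh58)*, 30 of 34 were below 0 with a median of -0.09, against 0.17 over all genes. The calls in *bcat-1(hh58)* were 7 lower, against 10.3% of all genes, and 1 higher, against 33.9%. The 7 were *plk-1*, *bub-1*, *spd-1*, *hcp-3*, *knl-2*, *spd-5* and *sas-4*.

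In the double mutant 27 of 34 were above 0 against wild-type, with a median of 0.12, against 0.10 over all genes. The double mutant had 1 member called lower (*spd-1*), against 11.9% of all genes, and 3 called higher (*cyd-1*, *cki-1* and *rnr-1*), against 26.4%, so the call rates lay below those of all genes. In *hecd-1(tm2371)* all 34 fold changes were above 0, with a median of 0.22, against 0.08 over all genes, and 11 members were called higher, where 14% of all genes were. These 11 were *cdk-1*, *cyb-1*, *cyb-2.1*, *cyb-2.2*, *cye-1*, *air-2*, *bub-3*, *mdf-1*, *knl-1*, *spd-5* and *sas-5*. In *hecd-1(tm2371)* limma called 0 members lower, where 7.15% of all genes were, and 0 were lower at an unadjusted p under 0.05. These 4 comparisons share the wild-type samples.

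**Figure D2:**
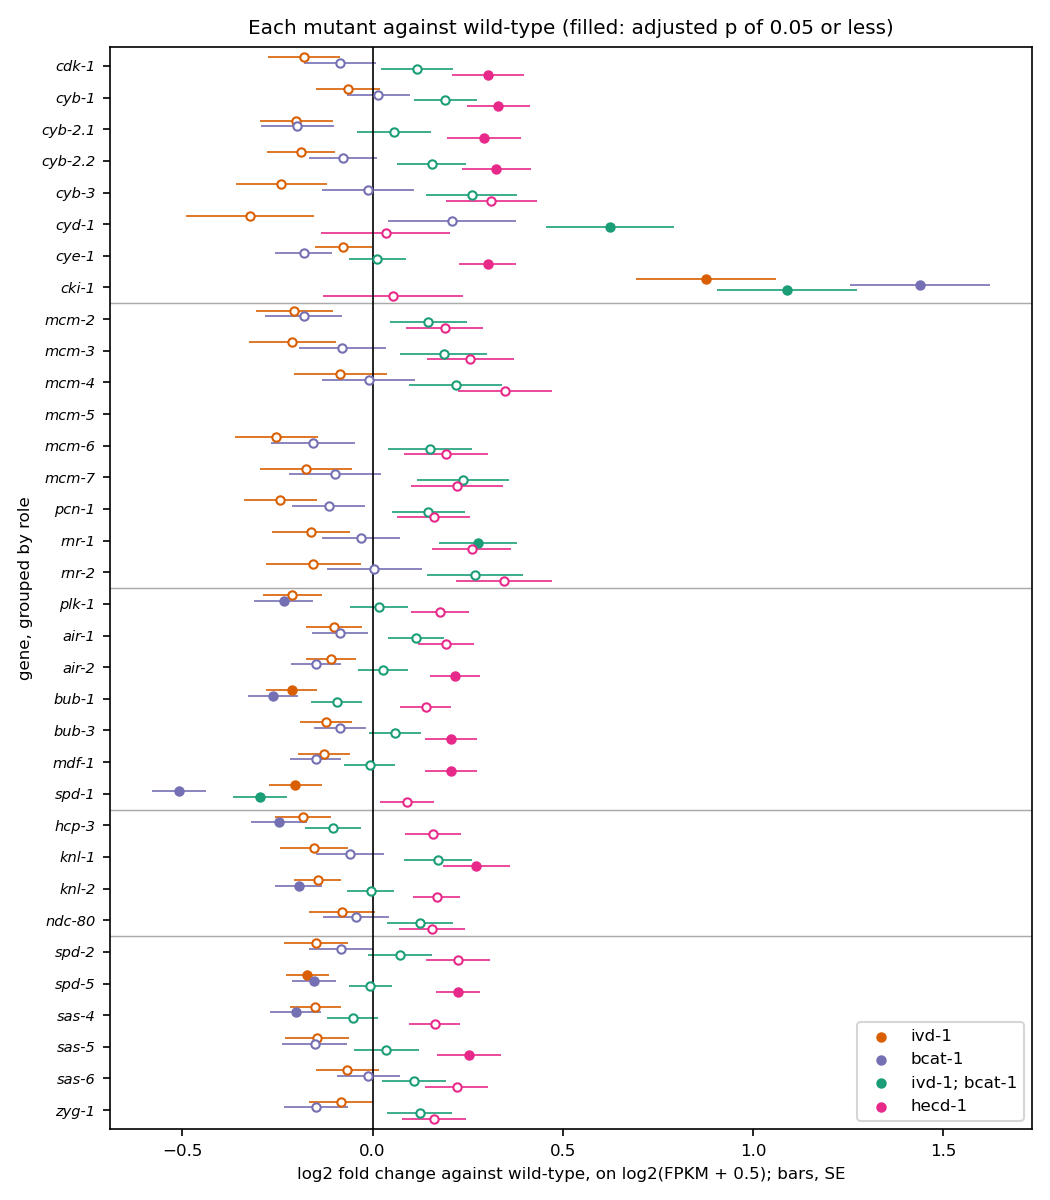
Log2 fold change of each gene against wild-type in the 4 mutants (points, fitted value; bars, SE; filled points, limma adjusted p of 0.05 or less; the value of *mcm-5*, listed at 0 in 1 sample, is left out). Most *ivd-1(tm6784)* and *bcat-1(hh58)* points lie left of 0 and all *hecd-1(tm2371)* points right of it, and *cki-1* lies between 0.88 and 1.44 in the 3 strains with a mutated amino acid gene.

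How many members passed the threshold against wild-type depended on single libraries and on the scaling. The 3 lower calls in *ivd-1(tm6784)* became 0 without wild-type replicate 1, 3 or 4 or without *ivd-1(tm6784)* replicate 2, and became 1 without *ivd-1(tm6784)* replicate 1 or 4. They became 5 without double mutant replicate 3, 7 without *bcat-1(hh58)* replicate 2 and 14 in a fit of these strains alone. In *bcat-1(hh58)* the 7 lower calls became 4, 15 and 3 without its replicates 1, 2 and 3. In *hecd-1(tm2371)* the 11 higher calls became 3 or 4 without wild-type replicate 2 or 3 or without *hecd-1(tm2371)* replicate 3 or 4, and 20 or 18 without *bcat-1(hh58)* replicate 2 or 3. With median-of-ratios scaling the counts of *hecd-1(tm2371)*, *bcat-1(hh58)* and *ivd-1(tm6784)* were 2, 17 and 9. All genes called were then 2419 (45.8% of them higher), 7696 (54.3%) and 3958 (64.3%). As deposited they were 3369 (66.1%), 7055 (76.6%) and 3633 (87.3%). With quantile normalization the member counts were 4, 13 and 9, and all genes called 2192 (41.1%), 7325 (34.6%) and 3658 (38.2%). The calls over all genes thus shifted with the scaling as well.

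Set against *hecd-1(tm2371)*, the *ivd-1(tm6784)* strain had 31 of the 34 genes lower, against 22.6% of all genes, and 1 was higher (*cki-1*), against 27.3%. The median log2 fold change was -0.39, against 0.12 over all genes. Only *cyd-1* and *mcm-5* did not pass. The 31 lower calls held between 29 and 32 as single replicates were left out, and were 31 under both other scalings.

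The design also allows a test of whether the effect of tm6784 differed with and without hh58, that is, whether the double mutant differed from what the changes of both single mutants would add up to. It did for 28 of the 34 genes. The interaction was above 0 for 27, where 12.2% of all genes were called in that direction, and below 0 for *cki-1*, where 35.3% were. The median was 0.37, against -0.19 over all genes. The 6 genes that did not pass were *cyb-1*, *mcm-4*, *mcm-5*, *rnr-2*, *ndc-80* and *sas-6*, and for these the fitted values were also above 0. For *cdk-1*, for example, tm6784 came with a log2 fold change of -0.18 against wild-type and of 0.20 on top of hh58. The 27 higher calls became 16 without *ivd-1(tm6784)* replicate 2, 17 without *bcat-1(hh58)* replicate 3 and 16 without double mutant replicate 3, and 30 to 32 under the other scalings.

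**Figure D3:**
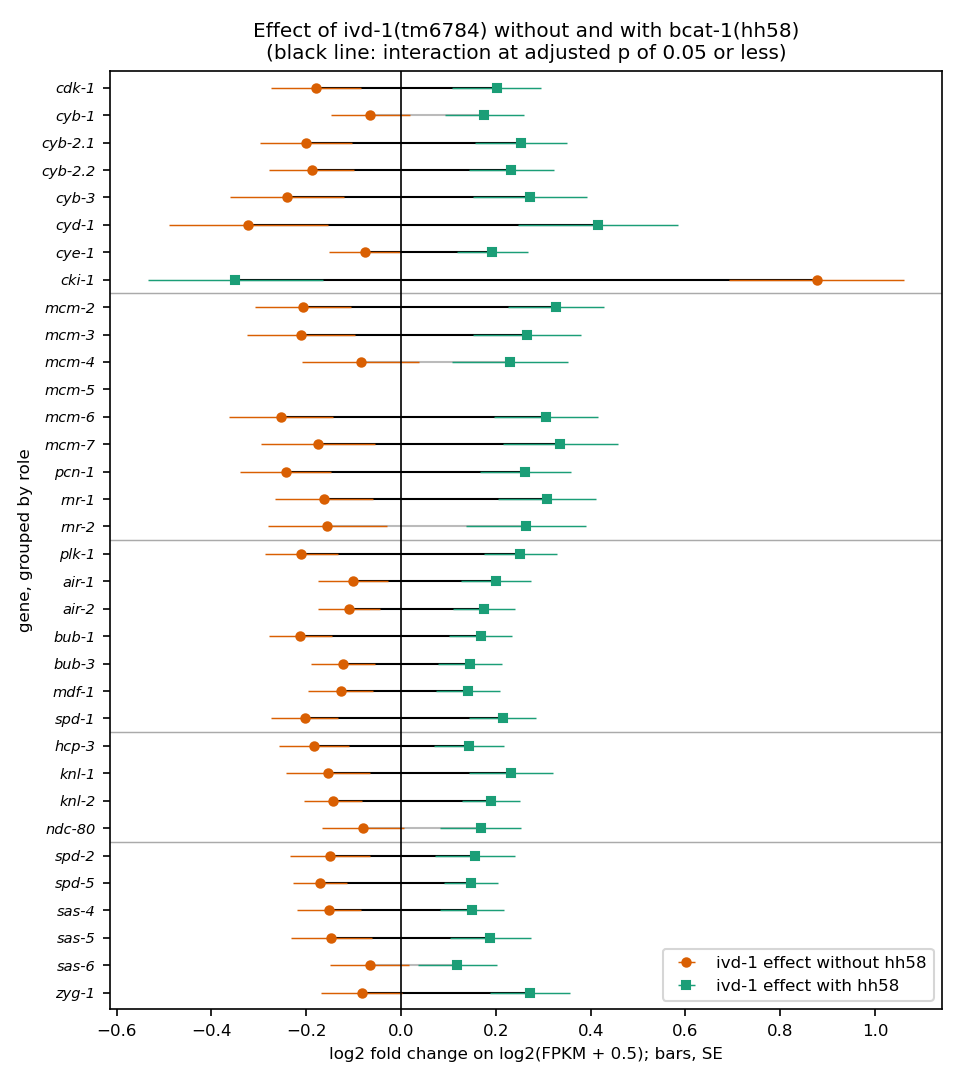
Log2 fold change that came with *ivd-1(tm6784)* in worms without hh58 (orange circles, *ivd-1(tm6784)* against wild-type) and with hh58 (green squares, double mutant against *bcat-1(hh58)*), with SE. A black line joins values whose interaction passed the threshold (28 genes); *cki-1* is the one gene whose circle lies right of its square, and *mcm-5* is left out.

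Against *ivd-1(tm6784)*, the double mutant had 19 members higher, where 21.4% of all genes were called higher, with a median log2 fold change of 0.23 against -0.01 over all genes. Limma called 0 members lower, against 23.2% of all genes, and 0 were lower at an unadjusted p under 0.05. The 19 higher calls became 10 without *ivd-1(tm6784)* replicate 2 or without double mutant replicate 3. Against *bcat-1(hh58)*, the double mutant had 6 members higher (*mcm-2*, *rnr-1*, *plk-1*, *spd-1*, *knl-2* and *zyg-1*), against 3.93% of all genes, with a median of 0.21 against -0.07 over all genes. Here too limma called 0 lower, against 19.5% of all genes, and 0 were lower at an unadjusted p under 0.05. The 6 rested on single libraries: they became 0 without *bcat-1(hh58)* replicate 1 or 3 or without double mutant replicate 3 or 4, 2 without *bcat-1(hh58)* replicate 4, and 32 without *bcat-1(hh58)* replicate 2. They became 11 to 14 without double mutant replicate 1 or 2 or *ivd-1(tm6784)* replicate 2, and 0 in a fit of these strains alone.

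Levels per length differed widely among the genes. In wild-type, *cyb-3* was the most abundant at 615 ± 42.2 FPKM (SD, n = 4), followed by *pcn-1* at 538 ± 30.6 and *rnr-2* at 411 ± 33.8. The centrosome genes *zyg-1* and *sas-4* were at 31.7 ± 0.873 and 24.8 ± 0.557 FPKM, and *cyd-1* and *cki-1* were lowest at 5.33 ± 1.18 and 4.59 ± 0.72. Of the 34, 32 lay above the wild-type median of the genes tested, which was 7.65 FPKM. Below, the values of a strain are given in the order of replicates 1 to 4 for the 29 genes that were called in 3 or more of the 8 comparisons.

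*cdk-1* (chrIII:9747472-9748852, plus strand in the WBcel235 annotation of Ensembl 115) encodes the cyclin-dependent kinase of mitosis. *cdk-1* stood at 204, 185, 197 and 213 FPKM in wild-type, 189, 156, 187 and 173 in *ivd-1(tm6784)* and 178, 229.5, 161 and 189.8 in *bcat-1(hh58)*. *cdk-1* reached 209.6, 196, 242 and 219 FPKM in the double mutant and 229.9, 231, 259 and 265 in *hecd-1(tm2371)*. The 4 *hecd-1(tm2371)* values lay above every wild-type value, and the 4 *ivd-1(tm6784)* values lay below every *hecd-1(tm2371)* value, by a log2 fold change of -0.48 ± 0.094 (SE; limma adjusted p = 0.000641). *cyb-1* encodes a B-type cyclin that activates CDK-1. Wild-type *cyb-1* was at 269.9, 246, 254 and 263 FPKM, against 260.3, 234, 254 and 240.3 in *ivd-1(tm6784)* and 258, 308, 222 and 262 in *bcat-1(hh58)*. With *cyb-1*, the double mutant gave 269, 270.4, 336 and 308 FPKM and *hecd-1(tm2371)* 309, 312, 336 and 343. Only *hecd-1(tm2371)* stood clear of wild-type for *cyb-1*, at 0.33 ± 0.083 (SE; limma adjusted p = 0.0103). Its interaction of 0.24 did not pass (limma adjusted p = 0.0983).

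*cyb-2.1* (chrIV) and *cyb-2.2* (chrI) are a pair of closely similar B-type cyclin genes, so how reads were divided between them is uncertain, and *cyb-2.2* held 1.55 to 1.80 times the FPKM of *cyb-2.1* across the 20 samples. For *cyb-2.1*, wild-type gave 139, 123, 123 and 135 FPKM, *ivd-1(tm6784)* 125, 95.7, 118 and 115 and *bcat-1(hh58)* 108, 134, 92.4 and 123. Transcripts of *cyb-2.1* were at 132, 125, 146 and 138 FPKM in the double mutant and at 152, 151, 164 and 169.6 in *hecd-1(tm2371)*. *cyb-2.2* stood at 215, 195, 203 and 212 FPKM in wild-type, 197, 159, 189 and 181 in *ivd-1(tm6784)* and 184, 229.7, 166 and 208 in *bcat-1(hh58)*. *cyb-2.2* reached 218, 208, 258 and 238 FPKM in the double mutant and 242, 250.0, 271 and 272 in *hecd-1(tm2371)*. Both rose in *hecd-1(tm2371)* over wild-type with no overlap between the samples, by 0.29 and 0.33 on the log2 scale (limma adjusted p = 0.0404 and 0.0171). *cyb-3* encodes cyclin B3. Wild-type *cyb-3* was at 642, 559, 607 and 652 FPKM, against 582, 444, 553 and 510.2 in *ivd-1(tm6784)* and 593, 759.6, 486 and 626 in *bcat-1(hh58)*. With *cyb-3*, the double mutant gave 676, 682, 845 and 749 FPKM and *hecd-1(tm2371)* 676, 699, 868 and 822. For *cyb-3*, every double mutant sample lay above every wild-type sample, yet the log2 fold change of 0.26 did not pass (limma adjusted p = 0.0976). The contrast of the double mutant with *ivd-1(tm6784)* did, at 0.50 ± 0.12 (SE; limma adjusted p = 0.00366).

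*cyd-1* (chrII:12980591-12993117, plus strand) encodes cyclin D, which acts in G1. For *cyd-1*, wild-type gave 6.79, 4.45, 4.29 and 5.79 FPKM, *ivd-1(tm6784)* 4.74, 3.86, 4.22 and 3.63 and *bcat-1(hh58)* 5.81, 8.31, 4.87 and 5.998. Transcripts of *cyd-1* were at 7.53, 7.53, 10.7 and 8.03 FPKM in the double mutant and at 5.47, 4.44, 6.76 and 5.07 in *hecd-1(tm2371)*. The double mutant was apart from all other strains but *bcat-1(hh58)* for *cyd-1*: its lowest value lay above the highest of wild-type, *ivd-1(tm6784)* and *hecd-1(tm2371)*, with a log2 fold change of 0.62 ± 0.17 (SE; limma adjusted p = 0.00766) against wild-type and of 0.95 ± 0.17 (SE; limma adjusted p = 0.000597) against *ivd-1(tm6784)*. The levels are low and the replicates spread widely, with an SD of 1.18 FPKM on a mean of 5.33 in wild-type. *cye-1* encodes cyclin E, which acts at the G1 to S transition. *cye-1* stood at 77.2, 76.8, 76.5 and 77.9 FPKM in wild-type, 75.6, 67.6, 74.8 and 74.6 in *ivd-1(tm6784)* and 65.8, 80.7, 59.3 and 67.7 in *bcat-1(hh58)*. *cye-1* reached 71.9, 71.7, 87.1 and 81.3 FPKM in the double mutant and 91.9, 94.5, 95.8 and 98.6 in *hecd-1(tm2371)*. Wild-type *cye-1* was nearly constant, and the 4 *hecd-1(tm2371)* samples lay above it, by 0.30 ± 0.075 (SE; limma adjusted p = 0.00962). Its interaction was 0.27 ± 0.11 (SE; limma adjusted p = 0.0453), near the threshold.

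*cki-1* (chrII:7811240-7812105, plus strand), the inhibitor of the cyclin-dependent kinases and the only inhibitor on the list, took the opposite course. Wild-type *cki-1* was at 4.75, 5.06, 3.53 and 5.02 FPKM, against 7.13, 12.1, 8.75 and 7.79 in *ivd-1(tm6784)* and 15.8, 10.5, 14.9 and 12.1 in *bcat-1(hh58)*. With *cki-1*, the double mutant gave 12.2, 10.1, 8.89 and 9.94 FPKM and *hecd-1(tm2371)* 6.28, 5.56, 3.68 and 3.88. Every sample of the double mutant, *bcat-1(hh58)* and *ivd-1(tm6784)* lay above the highest wild-type sample for *cki-1*. The rise was 0.88 ± 0.18 (SE; limma adjusted p = 0.00246) in *ivd-1(tm6784)*, 1.44 ± 0.18 (SE; limma adjusted p = 6.66e-06) in *bcat-1(hh58)* and 1.09 ± 0.18 (SE; limma adjusted p = 0.000231) in the double mutant, while *hecd-1(tm2371)* overlapped wild-type at 0.05 ± 0.18 (SE; limma adjusted p = 0.879). The interaction was -1.23 ± 0.26 (SE; limma adjusted p = 0.00168): on top of hh58, tm6784 came with no further rise (-0.35, limma adjusted p = 0.151). These 4 calls of *cki-1*, in the 3 mutants and the interaction, held in every alternative run.

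**Figure D4:**
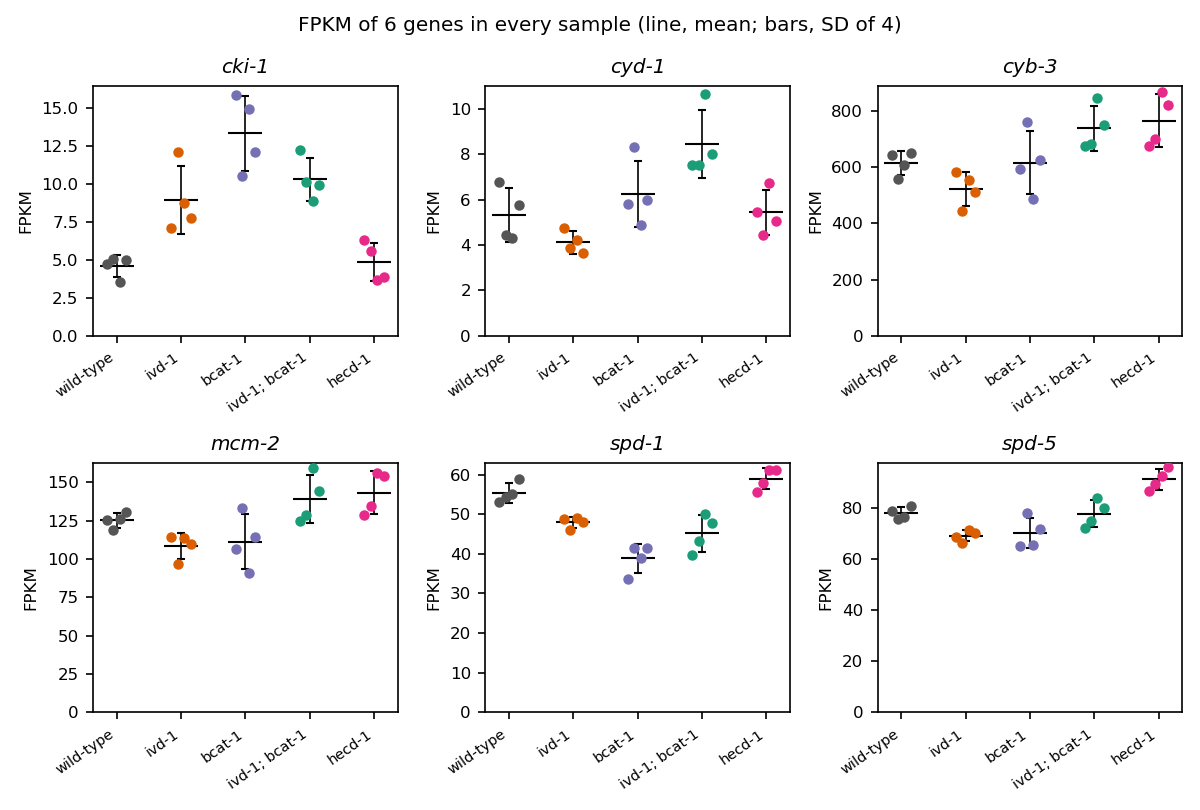
FPKM of *cki-1*, *cyd-1*, *cyb-3*, *mcm-2*, *spd-1* and *spd-5* in each of the 20 samples (points), with the mean and SD of 4 per strain. *cki-1* is raised in the 3 strains with a mutated amino acid gene, *cyd-1* in the double mutant, and *spd-1* is lowest in *bcat-1(hh58)*, while *spd-5* is highest in *hecd-1(tm2371)*.

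The replication genes had the highest median interaction of the 5 roles, 0.51, and 6 of the 9 passed, each above 0. The products of *mcm-2* to *mcm-7* form the ring-shaped helicase that opens DNA at the fork. *mcm-2* stood at 125, 119, 126 and 131 FPKM in wild-type, 115, 96.5, 114 and 109.9 in *ivd-1(tm6784)* and 107, 133, 90.9 and 115 in *bcat-1(hh58)*. *mcm-2* reached 125, 128, 159.5 and 144 FPKM in the double mutant and 128, 134, 156 and 154 in *hecd-1(tm2371)*. The *ivd-1(tm6784)* samples of *mcm-2* lay below every wild-type and every double mutant sample. Against wild-type the value of -0.21 did not pass (limma adjusted p = 0.151). Against *ivd-1(tm6784)* the double mutant rose by 0.35 ± 0.10 (SE; limma adjusted p = 0.0103). Wild-type *mcm-3* was at 129, 114, 121 and 125 FPKM, against 114, 92.1, 111 and 106 in *ivd-1(tm6784)* and 109, 147, 93.4 and 119 in *bcat-1(hh58)*. With *mcm-3*, the double mutant gave 126, 129, 160.3 and 143 FPKM and *hecd-1(tm2371)* 129.7, 137, 161 and 159. *mcm-3* in the double mutant was likewise above every *ivd-1(tm6784)* sample, by 0.40 ± 0.11 (SE; limma adjusted p = 0.0101).

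For *mcm-6*, wild-type gave 135, 125, 135 and 138 FPKM, *ivd-1(tm6784)* 119, 98.6, 119 and 111 and *bcat-1(hh58)* 117, 154, 94.5 and 119. Transcripts of *mcm-6* were at 134, 137, 168 and 155 FPKM in the double mutant and at 145, 143, 161 and 162 in *hecd-1(tm2371)*. In *mcm-6* the strains with tm6784 alone and with both mutations did not overlap, and the interaction was 0.56 ± 0.16 (SE; limma adjusted p = 0.00904). *mcm-7* stood at 193, 175, 182 and 193 FPKM in wild-type, 181, 143, 172 and 163 in *ivd-1(tm6784)* and 161, 222, 139 and 181 in *bcat-1(hh58)*. *mcm-7* reached 193, 202, 254 and 230.2 FPKM in the double mutant and 192, 201, 242 and 234 in *hecd-1(tm2371)*. The interaction of *mcm-7* was 0.51 ± 0.17 (SE; limma adjusted p = 0.0224). Against *ivd-1(tm6784)* the double mutant rose by 0.41 ± 0.12 (SE; limma adjusted p = 0.0116).

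*mcm-4* was called only against *hecd-1(tm2371)*, in *ivd-1(tm6784)*. Its wild-type samples lay at 89.7 to 118 FPKM, *ivd-1(tm6784)* at 89.0 to 109, *bcat-1(hh58)* at 82.5 to 129, the double mutant at 105 to 140.2 and *hecd-1(tm2371)* at 118 to 146. *mcm-5* (chrIII:4288264-4291266, minus strand) was called in no comparison. Wild-type *mcm-5* was at 132, 117, 126 and 135 FPKM, against 126, 103, 0 and 117 in *ivd-1(tm6784)* and 116, 159, 106 and 128 in *bcat-1(hh58)*. With *mcm-5*, the double mutant gave 144, 143, 179 and 156 FPKM and *hecd-1(tm2371)* 129, 141, 168 and 162. *mcm-5* is listed at 0 in *ivd-1(tm6784)* replicate 3, which can be a failed estimate, since the other 19 samples lay between 103 and 179 FPKM. With this value included, the fitted change from wild-type to *ivd-1(tm6784)* was -2.11 (limma adjusted p = 0.197). With listed zeros of expressed genes taken as missing, an alternative chosen after seeing the data, the *mcm-5* change was -0.15 (limma adjusted p = 0.389). In that fit *mcm-5* rose by 0.43 in the double mutant over *ivd-1(tm6784)* (limma adjusted p = 0.0105), and its interaction of 0.44 passed as well (limma adjusted p = 0.039).

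*pcn-1* encodes PCNA, the sliding clamp that holds the DNA polymerase. For *pcn-1*, wild-type gave 556, 496, 535 and 564 FPKM, *ivd-1(tm6784)* 492, 396, 476 and 458 and *bcat-1(hh58)* 471, 595, 425 and 507. Transcripts of *pcn-1* were at 554, 559, 682 and 593 FPKM in the double mutant and at 547, 568, 661 and 632 in *hecd-1(tm2371)*. Each *ivd-1(tm6784)* sample of *pcn-1* lay below each wild-type and each double mutant sample, and the interaction was 0.51 ± 0.14 (SE; limma adjusted p = 0.00747). *rnr-1* and *rnr-2* encode the large and the small subunit of ribonucleotide reductase, which makes the deoxynucleotides for replication. *rnr-1* stood at 179.6, 168, 176 and 187 FPKM in wild-type, 169, 145, 165 and 157 in *ivd-1(tm6784)* and 173, 218, 140.5 and 173 in *bcat-1(hh58)*. *rnr-1* reached 196, 198, 248 and 223 FPKM in the double mutant and 195, 203, 227 and 229 in *hecd-1(tm2371)*. Of the replication genes only *rnr-1* was called in the double mutant against wild-type, at 0.28 ± 0.10 (SE; limma adjusted p = 0.0422), with no overlap. *rnr-2* lay at 368 to 444 FPKM in wild-type worms, 312 to 402 in *ivd-1(tm6784)* worms, 333 to 520.0 in *bcat-1(hh58)*, 447 to 577 in the double mutant and 454 to 588 in *hecd-1(tm2371)*. *rnr-2* rose in the double mutant over *ivd-1(tm6784)*, at 0.42 ± 0.13 (SE; limma adjusted p = 0.0124), and its interaction of 0.42 did not pass (limma adjusted p = 0.061).

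All 7 mitotic kinase, checkpoint and spindle genes passed the interaction test, between 0.27 and 0.46. *plk-1* encodes the Polo-like kinase of mitotic entry and centrosome maturation. Wild-type *plk-1* was at 156, 148, 152 and 159 FPKM, against 137, 120.5, 143 and 131 in *ivd-1(tm6784)* and 124, 147, 116 and 137 in *bcat-1(hh58)*. With *plk-1*, the double mutant gave 144, 146, 173 and 161 FPKM and *hecd-1(tm2371)* 159, 167, 185 and 186. *plk-1* fell in *bcat-1(hh58)*, with a log2 fold change of -0.23 ± 0.077 (SE; limma adjusted p = 0.0198), and every *ivd-1(tm6784)* and *bcat-1(hh58)* sample lay below every wild-type sample, but the value of -0.21 in *ivd-1(tm6784)* did not pass (limma adjusted p = 0.0568). Its interaction was 0.46 ± 0.11 (SE; limma adjusted p = 0.00334). *air-1* encodes Aurora A, the kinase at spindle poles. For *air-1*, wild-type gave 181, 175, 176 and 181 FPKM, *ivd-1(tm6784)* 178, 151, 167 and 170.4 and *bcat-1(hh58)* 164, 195, 146 and 171. Transcripts of *air-1* were at 186, 181, 218 and 189 FPKM in the double mutant and at 197, 198, 212 and 209 in *hecd-1(tm2371)*. For *air-1* the double mutant lay above *ivd-1(tm6784)* without overlap, at 0.22 ± 0.074 (SE; limma adjusted p = 0.0257). *air-2* encodes Aurora B, the kinase of the chromosomal passenger complex. *air-2* stood at 78.8, 74.9, 74.6 and 83.4 FPKM in wild-type, 75.5, 69.6, 74.2 and 69.4 in *ivd-1(tm6784)* and 67.4, 80.6, 64.6 and 69.3 in *bcat-1(hh58)*. *air-2* reached 74.0, 76.0, 87.2 and 81.0 FPKM in the double mutant and 86.1, 87.5, 95.1 and 93.4 in *hecd-1(tm2371)*. Against wild-type *air-2* was called only in *hecd-1(tm2371)*, at 0.22 ± 0.065 (SE; limma adjusted p = 0.0273).

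*bub-1* encodes the kinase that recruits the spindle checkpoint to kinetochores. Wild-type *bub-1* was at 77.7, 74.0, 76.5 and 80.2 FPKM, against 67.3, 62.8, 68.1 and 67.6 in *ivd-1(tm6784)* and 60.6, 73.4, 57.7 and 66.1 in *bcat-1(hh58)*. With *bub-1*, the double mutant gave 67.9, 69.9, 78.1 and 73.2 FPKM and *hecd-1(tm2371)* 77.4, 83.5, 90.5 and 88.8. The *ivd-1(tm6784)* and *bcat-1(hh58)* ranges of *bub-1* lay below that of wild-type, at -0.21 ± 0.067 (SE; limma adjusted p = 0.0289) and -0.26 ± 0.067 (SE; limma adjusted p = 0.00383). *bub-3* encodes the partner of BUB-1, and *mdf-1* the *C. elegans* Mad1, which scaffolds the checkpoint complex. For *bub-3*, wild-type gave 128, 117, 128 and 129 FPKM, *ivd-1(tm6784)* 120.0, 108, 117 and 117 and *bcat-1(hh58)* 115, 132, 106 and 120.3. Transcripts of *bub-3* were at 127, 123, 145 and 129 FPKM in the double mutant and at 136, 136, 155 and 154 in *hecd-1(tm2371)*. *mdf-1* stood at 59.7, 58.3, 60.0 and 61.1 FPKM in wild-type, 53.9, 52.0, 57.9 and 55.0 in *ivd-1(tm6784)* and 49.7, 61.5, 49.8 and 55.0 in *bcat-1(hh58)*. *mdf-1* reached 54.6, 56.4, 67.8 and 59.8 FPKM in the double mutant and 66.1, 67.8, 70.3 and 71.9 in *hecd-1(tm2371)*. Both stood above wild-type in every *hecd-1(tm2371)* sample, by 0.21 for *bub-3* and 0.21 for *mdf-1* (limma adjusted p = 0.0401 and 0.0388).

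*spd-1* (chrI:1030633-1033436, minus strand) encodes the PRC1-like protein that bundles microtubules in the central spindle between the separating chromosomes. Wild-type *spd-1* was at 53.1, 54.3, 55.2 and 58.9 FPKM, against 48.9, 46.1, 49.2 and 47.9 in *ivd-1(tm6784)* and 33.7, 41.5, 38.9 and 41.4 in *bcat-1(hh58)*. With *spd-1*, the double mutant gave 39.6, 43.3, 49.975 and 47.9 FPKM and *hecd-1(tm2371)* 55.7, 57.8, 61.1 and 61.3. *spd-1* differed in pattern from the other members of the 34. It was lower than wild-type in all 3 strains with a mutated amino acid gene, without overlap: -0.20 ± 0.071 (SE; limma adjusted p = 0.0473) in *ivd-1(tm6784)*, -0.51 ± 0.071 (SE; limma adjusted p = 1.5e-05) in *bcat-1(hh58)* and -0.30 ± 0.071 (SE; limma adjusted p = 0.0035) in the double mutant. The *bcat-1(hh58)* samples also lay below every *ivd-1(tm6784)* sample. On top of hh58, tm6784 came with a rise of 0.21 ± 0.071 (SE; limma adjusted p = 0.0402). In *hecd-1(tm2371)* *spd-1* was near wild-type, at 0.09 (limma adjusted p = 0.403).

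Among the centromere and kinetochore genes, *hcp-3* encodes the centromeric histone CENP-A and *knl-2* a protein needed to load it. For *hcp-3*, wild-type gave 109.7, 101, 110.3 and 110.0 FPKM, *ivd-1(tm6784)* 98.8, 86.6, 98.1 and 96.1 and *bcat-1(hh58)* 85.3, 103, 82.2 and 93.4. Transcripts of *hcp-3* were at 94.8, 90.9, 116 and 101 FPKM in the double mutant and at 115, 121, 121 and 124 in *hecd-1(tm2371)*. *hcp-3* fell in *bcat-1(hh58)*, at -0.25 (limma adjusted p = 0.011), with 1 of the 4 *bcat-1(hh58)* samples inside the wild-type range. *knl-2* stood at 48.2, 45.5, 45.1 and 48.3 FPKM in wild-type, 42.3, 40.3, 44.1 and 42.4 in *ivd-1(tm6784)* and 38.5, 45.5, 38.3 and 41.3 in *bcat-1(hh58)*. *knl-2* reached 42.8, 45.7, 50.4 and 47.8 FPKM in the double mutant and 48.3, 52.0, 53.9 and 56.5 in *hecd-1(tm2371)*. *knl-2* fell in *bcat-1(hh58)*, at -0.19 and rose in the double mutant over *bcat-1(hh58)* by 0.19 (limma adjusted p = 0.0157 and 0.0383). Its *ivd-1(tm6784)* samples lay below every wild-type sample, with a value of -0.14 that did not pass (limma adjusted p = 0.0994).

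*knl-1* encodes the scaffold of the outer kinetochore, and *ndc-80* the subunit that binds microtubules. Wild-type *knl-1* was at 49.4, 46.2, 44.6 and 49.8 FPKM, against 44.001, 38.8, 44.3 and 43.3 in *ivd-1(tm6784)* and 42.6, 52.5, 40.7 and 47.1 in *bcat-1(hh58)*. With *knl-1*, the double mutant gave 48.9, 51.023, 60.2 and 54.6 FPKM and *hecd-1(tm2371)* 49.4, 55.2, 63.8 and 62.4. *knl-1* was the only one of the 4 called in the double mutant over *ivd-1(tm6784)*, at 0.33 ± 0.089 (SE; limma adjusted p = 0.00753), and in *hecd-1(tm2371)* over wild-type, at 0.27 ± 0.089 (SE; limma adjusted p = 0.0374). *ndc-80* ranged over 63.1 to 67.5 FPKM in wild-type worms, 57.9 to 65.3 in *ivd-1(tm6784)* worms, 56.1 to 77.4 in *bcat-1(hh58)*, 65.0 to 81.0 in the double mutant and 68.0 to 80.8 in *hecd-1(tm2371)*. Its one call was the fall of *ivd-1(tm6784)* against *hecd-1(tm2371)*, at -0.24 ± 0.086 (SE; limma adjusted p = 0.0301).

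SPD-2 and SPD-5 build the pericentriolar material, the matrix around the centrioles from which microtubules grow. For *spd-2*, wild-type gave 79.0, 71.4, 70.5 and 73.1 FPKM, *ivd-1(tm6784)* 69.4, 62.8, 67.0 and 65.6 and *bcat-1(hh58)* 67.0, 83.5, 58.8 and 70.4. Transcripts of *spd-2* were at 70.3, 73.7, 87.3 and 78.8 FPKM in the double mutant and at 80.9, 83.2, 88.3 and 91.5 in *hecd-1(tm2371)*. *spd-2* in *hecd-1(tm2371)* lay above every wild-type sample, but the value of 0.22 did not pass (limma adjusted p = 0.0667). *spd-5* stood at 79.0, 75.7, 76.4 and 80.8 FPKM in wild-type, 68.8, 66.3, 71.3 and 70.2 in *ivd-1(tm6784)* and 65.3, 78.0, 65.6 and 71.8 in *bcat-1(hh58)*. *spd-5* reached 72.1, 75.0, 83.8 and 80.2 FPKM in the double mutant and 86.6, 89.3, 92.7 and 96.2 in *hecd-1(tm2371)*. *spd-5* was called in 6 of the 8 comparisons. It fell in *ivd-1(tm6784)*, at -0.17 ± 0.057 (SE; limma adjusted p = 0.0377), and in *bcat-1(hh58)*, at -0.15 ± 0.057 (SE; limma adjusted p = 0.0356), and rose in *hecd-1(tm2371)* by 0.22 ± 0.057 (SE; limma adjusted p = 0.0107). The range of *hecd-1(tm2371)* lay above those of all other strains.

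ZYG-1, a kinase, starts centriole duplication, and SAS-4, SAS-5 and SAS-6 assemble the new centriole. Wild-type *zyg-1* was at 32.4, 30.8, 31.2 and 32.6 FPKM, against 31.6, 27.9, 31.3 and 29.1 in *ivd-1(tm6784)* and 27.003, 34.4, 25.199 and 28.4 in *bcat-1(hh58)*. With *zyg-1*, the double mutant gave 32.8, 32.5, 38.7 and 34.7 FPKM and *hecd-1(tm2371)* 32.2, 33.8, 39.4 and 37.3. *zyg-1* rose in the double mutant over *bcat-1(hh58)*, at 0.27 ± 0.085 (SE; limma adjusted p = 0.0338). Its double mutant samples also lay above every *ivd-1(tm6784)* sample, with a value of 0.21 that did not pass (limma adjusted p = 0.0554). For *sas-4*, wild-type gave 25.282, 24.5, 25.205 and 24.1 FPKM, *ivd-1(tm6784)* 22.4, 21.044, 22.8 and 22.9 and *bcat-1(hh58)* 21.3, 24.6, 18.9 and 21.4. Transcripts of *sas-4* were at 22.6, 22.1, 25.4 and 25.7 FPKM in the double mutant and at 26.6, 27.3, 28.1 and 29.3 in *hecd-1(tm2371)*. For *sas-4*, *ivd-1(tm6784)* lay below and *hecd-1(tm2371)* above the wild-type range, while the only call against wild-type was the fall in *bcat-1(hh58)*, at -0.20 ± 0.067 (SE; limma adjusted p = 0.0212). *sas-5* stood at 73.3, 74.2, 70.4 and 79.979 FPKM in wild-type, 68.5, 62.0, 72.4 and 66.1 in *ivd-1(tm6784)* and 61.4, 79.0, 59.4 and 69.4 in *bcat-1(hh58)*. *sas-5* reached 71.1, 71.6, 88.4 and 75.4 FPKM in the double mutant and 83.0, 85.8, 92.4 and 94.4 in *hecd-1(tm2371)*. The *hecd-1(tm2371)* samples of *sas-5* were above the wild-type range, at 0.25 ± 0.085 (SE; limma adjusted p = 0.0419). *sas-6* shares exon sequence on the same strand with *icap-1*, so its reads may be shared. It lay at 54.7 to 60.0 FPKM in wild-type worms, 53.0 to 56.9 in *ivd-1(tm6784)* worms, 49.967 to 70.3 in *bcat-1(hh58)*, 57.0 to 70.2 in the double mutant and 63.4 to 73.5 in *hecd-1(tm2371)*, and was called only in *ivd-1(tm6784)* against *hecd-1(tm2371)*, at -0.29 ± 0.084 (SE; limma adjusted p = 0.00937).

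By role, in the double mutant against *ivd-1(tm6784)*, 7 of the 9 replication genes and 6 of the 8 cyclin and kinase genes rose, against 3 of the 7 mitotic kinase, checkpoint and spindle genes, 1 of the 4 kinetochore genes and 2 of the 6 centrosome genes. Of all genes, 21.4% were called higher in that comparison. The group medians there were 0.40, 0.28, 0.14, 0.17 and 0.18. In *hecd-1(tm2371)* against wild-type, limma called 0 of the 9 replication genes, with 4 higher at an unadjusted p under 0.05. It called 5 of the 8 cyclin and kinase genes higher, where 14% of all genes were. The group medians in *hecd-1(tm2371)* were 0.23 for replication, 0.30 for cyclins and their kinase, 0.19 for mitotic kinases, checkpoint and spindle, 0.16 for the kinetochore and 0.22 for the centrosome. The fold changes of the roles overlap, and no test compared the roles with each other. None of the 34 genes lies on the X chromosome, which holds 13.9% of the genes tested, and chromosomes I and III hold 9 each.

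The 7 lists of other genes of the same processes, none of them a member, held 141 tested genes. Of these, 94 were called above 0 in the interaction, against 12.2% of all genes, and 131 were lower in *ivd-1(tm6784)* than in *hecd-1(tm2371)*, against 22.6%. In the interaction limma called 0 lower, against 35.3% of all genes, and 1 was lower at an unadjusted p under 0.05. By list, the interaction was called above 0 for 20 of 32 genes of replication licensing and the fork, 13 of 21 of cell cycle entry and kinase control, 8 of 13 of the anaphase-promoting complex and its targets, 13 of 14 of cohesin and condensin, 17 of 23 other kinetochore and checkpoint genes, 17 of 25 of the spindle and cytokinesis, and 6 of 13 other centrosome genes. The largest values in the first list were 0.59 ± 0.12 (SE; limma adjusted p = 0.00146) for *top-2*, a DNA topoisomerase, and 0.49 ± 0.13 (SE; limma adjusted p = 0.00635) for *psf-1*, a subunit of the GINS complex at the fork. *sep-1*, which encodes separase, stood at 0.40 ± 0.10 (SE; limma adjusted p = 0.00548), and *klp-19*, a kinesin of the meiotic and mitotic spindle, at 0.56 ± 0.11 (SE; limma adjusted p = 0.000928). *hcp-1*, a CENP-F-like kinetochore gene, was at 0.53 ± 0.13 (SE; limma adjusted p = 0.00334), and *rsa-2*, a centrosomal protein gene, at 0.41 ± 0.11 (SE; limma adjusted p = 0.00605).

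Against wild-type the same 141 genes showed 12 lower calls in *ivd-1(tm6784)* (2.88% of all genes) and 19 lower and 1 higher in *bcat-1(hh58)* (10.3% and 33.9% of all genes). There were 4 lower and 17 higher in the double mutant (11.9% and 26.4% of all genes) and 52 higher in *hecd-1(tm2371)* (14% of all genes). In *ivd-1(tm6784)* limma called 0 of the 141 higher, against 19.9% of all genes, with 0 higher at an unadjusted p under 0.05. In *hecd-1(tm2371)* it called 0 lower, against 7.15% of all genes, with 0 at an unadjusted p under 0.05. In the double mutant 93 were higher than in *ivd-1(tm6784)*, against 21.4% of all genes, and 24 higher than in *bcat-1(hh58)*, against 3.93%. These counts come from the same libraries as those of the 34 genes, and their dependence on single libraries was not tested.

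Of 30 germline and oocyte markers, against wild-type, 9 were lower in *ivd-1(tm6784)* (2.88% of all genes), 13 lower in *bcat-1(hh58)* (10.3%), 9 lower and 1 higher in the double mutant (11.9% and 26.4%), and 1 lower and 20 higher in *hecd-1(tm2371)* (7.15% and 14%). In the interaction 27 of the 30 were called above 0, against 12.2% of all genes, with a median of 0.49. Their summed level was 10433 to 11182 FPKM in wild-type worms, 8419.6 to 9847 in *ivd-1(tm6784)* worms, 7859 to 10876 in *bcat-1(hh58)*, 10209 to 12458 in the double mutant and 12180.1 to 13934 in *hecd-1(tm2371)*. None of them was at 0 in all samples of a strain. Of 21 meiosis markers, 10 were called above 0 in the interaction, against 12.2% of all genes, with a median of 0.23. In *hecd-1(tm2371)* 12 of them were higher than in wild-type, against 14% of all genes. Of 18 tested sperm markers, 15 were called below 0 in the interaction, against 35.3% of all genes. The summed level of the sperm markers was 101 to 171 FPKM in wild-type worms, 160.0 to 250.0 in *ivd-1(tm6784)* worms and 76.4 to 204 in *bcat-1(hh58)*. It was 43.0 to 83.5 FPKM in the double mutant and 82.4 to 185 in *hecd-1(tm2371)*. Of 15 tested markers of zygotic transcription in embryos, 9 were higher in *bcat-1(hh58)*, against 33.9% of all genes, and 11 in the double mutant, against 26.4%, with sums over the 20 listed genes of 120.3 to 149.7 FPKM in wild-type worms, 108 to 141 in *ivd-1(tm6784)* worms, 133 to 199 in *bcat-1(hh58)*, 172 to 220.2 in the double mutant and 141 to 188 in *hecd-1(tm2371)*. The part of the germline, sperm and embryos in the results for the 34 genes was not tested.

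**Figure D5:**
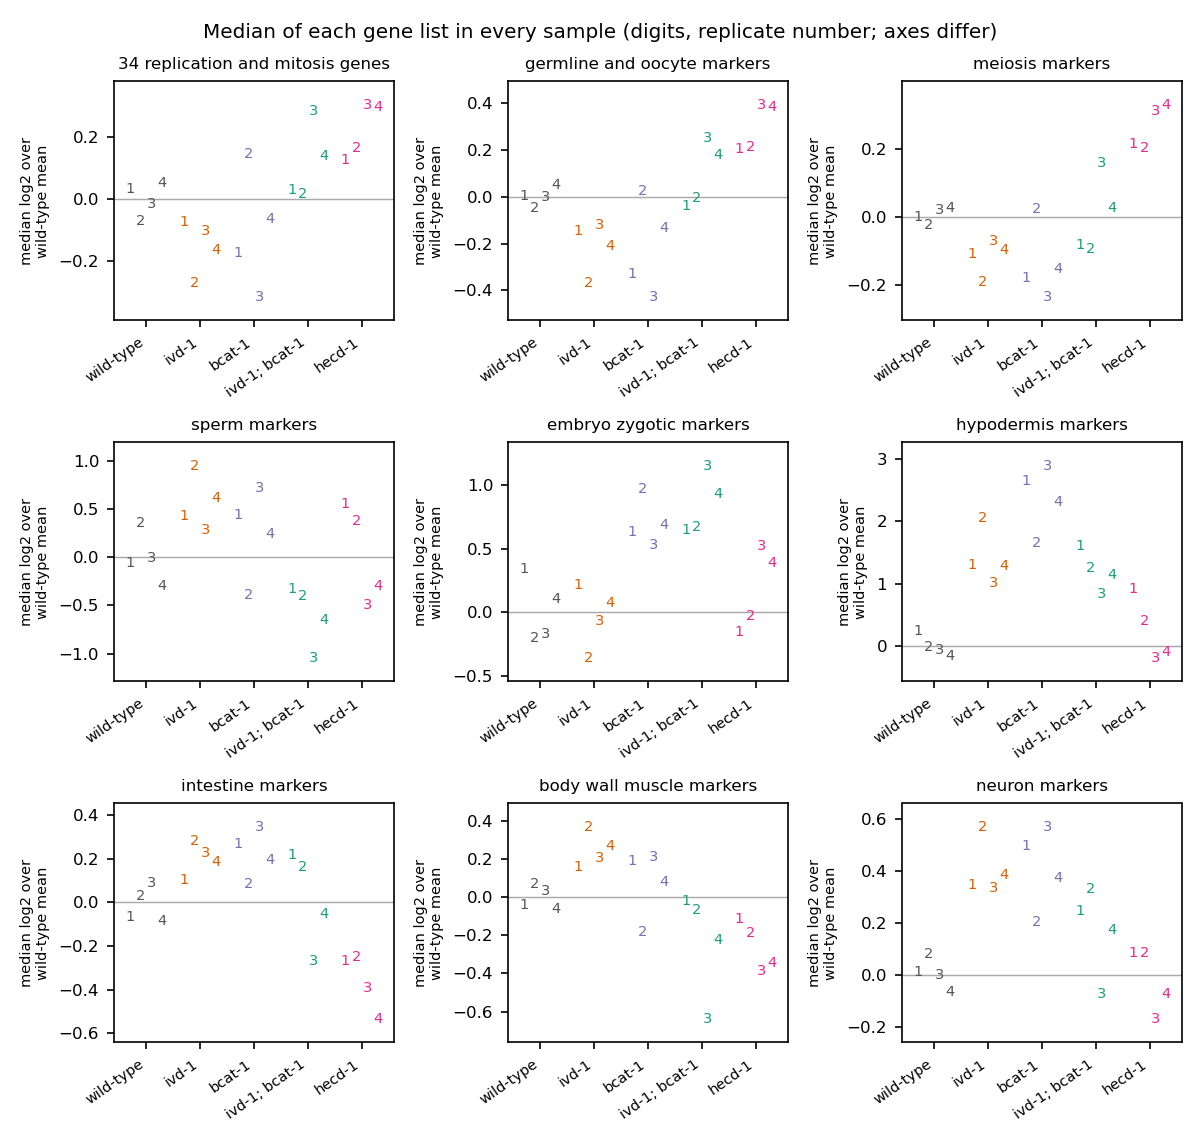
Median over each gene list of log2(FPKM + 0.5) minus the wild-type mean, in each of the 20 samples (digits are replicate numbers within a strain; the vertical axes differ). The germline and oocyte markers, like the 34 genes, are highest in *hecd-1(tm2371)* and lie below 0 in every *ivd-1(tm6784)* sample, and within *bcat-1(hh58)* replicate 2 is highest and replicate 3 lowest in both, while the sperm markers run the other way in these samples.

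Among markers of the soma, in *ivd-1(tm6784)* against *hecd-1(tm2371)*, 12 of 12 body wall muscle markers, 10 of 11 intestine markers and 14 of 16 neuron markers were higher, where 27.3% of all genes were. There 1 neuron marker was lower, where 22.6% of all genes were. In the interaction 12, 8 and 13 of these markers were called below 0, against 35.3% of all genes, with 1 intestine marker called above, against 12.2%. Of 12 hypodermis markers, 7 were higher and 2 lower in *ivd-1(tm6784)* against *hecd-1(tm2371)*, and 8 were called below and 1 above 0 in the interaction. Against wild-type, 7 of the 12 hypodermis markers were higher in *ivd-1(tm6784)*, where 19.9% of all genes were. In *bcat-1(hh58)* 9 were higher and 2 lower, where 33.9% and 10.3% of all genes were. The median log2 fold changes of the hypodermis markers were 1.41 and 2.35. In the double mutant 8 hypodermis markers were called higher, against 26.4% of all genes, with a median of 1.18. Limma called 0 of them lower there, against 11.9% of all genes, and 2 were lower at an unadjusted p under 0.05. In *hecd-1(tm2371)* 2 of the 12 were called higher, against 14% of all genes, with a median of 0.39. The summed level of the hypodermis markers did not follow these medians. It was 2337 to 2552 FPKM in wild-type worms, 2828 to 3034 in *ivd-1(tm6784)* worms and 2127 to 3086 in *bcat-1(hh58)*. In the double mutant it was 1529 to 2660 FPKM and in *hecd-1(tm2371)* 2158 to 2476. Of the 16 neuron markers, 10 were called higher than in wild-type with tm6784 alone, against 19.9% of all genes. With hh58 alone 14 were, against 33.9%. The double mutant had 4 called higher and *hecd-1(tm2371)* 1, against 26.4% and 14%. Limma called 0 of them lower in any mutant, with 0 at an unadjusted p under 0.05. Of the intestine and body wall muscle markers, 5 and 4 were called lower in *hecd-1(tm2371)*, against 7.15% of all genes. In the double mutant 2 and 4 were lower, against 11.9%, and 2 and 1 higher. With tm6784 alone 2 and 1 were higher, and with hh58 alone 4 and 2. FPKM are relative to the total of a library, and the part of the somatic tissues in the results for the 34 genes was not tested.

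The replicates of a strain also differed in all 34 genes together. In *bcat-1(hh58)*, replicate 2 held the highest value of 33 genes and replicate 3 the lowest of 30, and the median over the genes was -0.17, 0.15, -0.32 and -0.07 in its replicates 1 to 4, as log2 against the wild-type mean. The sperm markers in the same samples had medians of 0.43, -0.39, 0.71 and 0.24, lowest where the 34 genes were highest. In the double mutant, replicate 3 held the highest value of 32 genes, with medians of 0.03, 0.02, 0.29 and 0.14, and the sperm markers stood at -0.33, -0.40, -1.05 and -0.65. In *ivd-1(tm6784)*, replicate 2 was lowest for 30 genes, at medians of -0.08, -0.27, -0.10 and -0.16. In *hecd-1(tm2371)*, replicate 1 was lowest for 28 genes, at 0.13, 0.17, 0.31 and 0.30. The coefficient of variation over replicates had a median over 33 genes (without *mcm-5*) of 4.44% in wild-type worms, 6.50% in *ivd-1(tm6784)* worms, 14.2% in *bcat-1(hh58)*, 9.72% in the double mutant and 7.16% in *hecd-1(tm2371)*. The *bcat-1(hh58)* strain, whose replicates spread most, enters the interaction.

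Exons of 11 members (*mcm-2*, *mcm-3*, *mcm-4*, *mcm-6*, *mcm-7*, *rnr-2*, *hcp-3*, *knl-2*, *ndc-80*, *spd-2* and *spd-5*) overlap a coding gene on the opposite strand. The libraries kept strand, but whether the FPKM used it is not given in the sources used here, so reads of partners cannot be told apart for these 11. The other 22 besides *sas-6* have no such overlap.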

How the data were processed

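RNA of whole adult worms from 5 strains with 4 replicates each was sequenced by the authors from poly-A-selected stranded libraries on an Illumina NovaSeq with paired reads. The authors aligned the reads with Tophat2 2.0.10 and derived expression with Cufflinks2 2.1.1 on Ensembl version 93, and deposited 1 table of FPKM for 46284 genes, of which 24591 were at 0 in all samples. The genome build is not given in the sources used here. Count models do not suit FPKM and were left out. FPKM summed to 1004157 to 1136133 over the genes of a sample, and the number of reads is unknown. A relative depth, read from the most common ratio of values below 3 FPKM between samples, lay between 0.89 and 1.08. Only a narrow range of ratios was searched, so a large difference in depth could not have been found.

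Values were taken as log2(FPKM + 0.5), and limma 3.58.1 in R 4.3.3 tested the 15957 genes that reached 0.5 FPKM in 4 or more samples (lmFit, contrasts.fit, and eBayes with trend = TRUE). All 20 samples entered 1 fit with strain as the only term, and p-values were two-sided and adjusted by Benjamini-Hochberg over all tested genes in each of 8 comparisons. The threshold was an adjusted p of 0.05. Tables and plots were made with Python 3.11.15, pandas 2.3.3, numpy 2.4.6 and matplotlib 3.10.9. The fit was tested on simulated data. Positions and exon overlaps are those of Ensembl release 115 (WBcel235).

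The 34 genes, the 7 lists of related genes and the 8 lists of cell type markers were chosen with earlier results of these data known, and 281 of the 292 symbols of these lists were found in the table. Every member is named, with the values of each sample where it was called in 3 or more comparisons. From the lists of related genes at most the 2 genes with the largest change among those called were named. The counts of related genes and of markers were taken from the main fit only, without the alternatives below. Groups and replicate numbers came from the sample labels. As alternatives, results were computed with pseudocounts of 0.1 and 1, without the filter, with a mean of at least 1 FPKM, median-of-ratios scaling, quantile normalization, a fit restricted to the strains of a comparison, a block for the replicate number, sample weights, an adjusted p of 0.01, leaving out each sample, and listed zeros of genes that reach 10 FPKM elsewhere taken as missing, which was added after seeing the data.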

Additional observations from a re-analysis of the deposited data

Results flagged for a closer look

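Among 170 sets of 4 replicates (34 genes in 5 strains), 5 had a sample far from the other 3, where chance gives about 1 in 20. That is fewer than chance gives. The rule did not flag *mcm-5*, listed at 0 FPKM in *ivd-1(tm6784)* replicate 3, because its other values also spread. *cyd-1* stood at 10.7 FPKM in double mutant replicate 3, above the others. In *ivd-1(tm6784)* replicate 2, *cye-1* stood at 67.6 and *bub-1* at 62.8 FPKM, below the others. In wild-type replicate 2, *bub-3* stood at 117 and *hcp-3* at 101 FPKM, below the others. Double mutant replicate 3 was the highest of its strain for 32 of the 34 genes, and *ivd-1(tm6784)* replicate 2 and wild-type replicate 2 were the lowest of theirs for 30 and 23.

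The effect of tm6784 differed between worms with and without hh58, by the interaction term of limma at an adjusted p of 0.05, in 28 genes. In the log2 unit, the difference among the cyclins and their kinase was 0.38 for *cdk-1*, 0.45 for *cyb-2.1*, 0.42 for *cyb-2.2*, 0.51 for *cyb-3*, 0.74 for *cyd-1*, 0.27 for *cye-1* and -1.23 for *cki-1*, the only value below 0. Replication genes gave 0.53 for *mcm-2*, 0.48 for *mcm-3*, 0.56 for *mcm-6*, 0.51 for *mcm-7*, 0.51 for *pcn-1* and 0.47 for *rnr-1*. Mitotic kinase, checkpoint and spindle genes gave 0.46 for *plk-1*, 0.30 for *air-1*, 0.29 for *air-2*, 0.38 for *bub-1*, 0.27 for *bub-3*, 0.27 for *mdf-1* and 0.42 for *spd-1*. Kinetochore genes gave 0.33 for *hcp-3*, 0.39 for *knl-1* and 0.33 for *knl-2*. Centrosome genes gave 0.31 for *spd-2*, 0.32 for *spd-5*, 0.30 for *sas-4*, 0.34 for *sas-5* and 0.36 for *zyg-1*.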

How the results depend on the processing

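Over 31 alternatives, none of the 112 calls of single members changed sign. Pseudocounts of 0.1 and 1 and a mean of at least 1 FPKM kept all 112 calls. The counts of members called moved by more than 1.5 times as follows, and the cause was not tested. The calls over all genes moved with the scaling too, so these counts are not to be set against the shares given above. Lower calls in *ivd-1(tm6784)* against wild-type (3) were 9 with quantile normalization, 9 with median-of-ratios scaling, 14 in a fit restricted to both strains, 13 with sample weights and 0 at an adjusted p of 0.01, and lay between 0 and 7 as single replicates were left out. Lower calls in *bcat-1(hh58)* against wild-type (7) were 13, 17 and 12 with quantile normalization, median-of-ratios scaling and sample weights, 2 at an adjusted p of 0.01, and 3 to 15 without single replicates. In the double mutant against wild-type, sample weights gave 3 lower calls (1) and the fit of only these strains 6 higher calls (3). Higher calls in *hecd-1(tm2371)* against wild-type (11) were 4, 2, 23 and 21 with quantile normalization, median-of-ratios scaling, only these strains and sample weights, 1 at an adjusted p of 0.01, and 3 to 20 without single replicates. Double mutant against *ivd-1(tm6784)* had 7 higher calls (19) at an adjusted p of 0.01, 10 to 26 without single replicates, and 1 lower call (0) with sample weights. Double mutant against *bcat-1(hh58)* had 21, 19, 0 and 10 higher calls (6) with quantile normalization, median-of-ratios scaling, only these strains and sample weights, 0 at an adjusted p of 0.01, and 0 to 32 without single replicates. The interaction had 8 higher calls (27) at an adjusted p of 0.01 and 16 to 32 without single replicates. With no filter on low values 12 of the 112 calls were lost.

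In no pair of strains did the deviations of all 4 same-numbered samples correlate above 0.1 (mean correlation between -0.155 and 0.235). All 4 correlations were positive between wild-type and *ivd-1(tm6784)* (0.041 to 0.254) and between wild-type and *hecd-1(tm2371)* (0.084 to 0.301). They were also positive between the double mutant and *hecd-1(tm2371)* (0.034 to 0.367). In every other pair of strains the lowest correlation was negative, down to -0.457. Whether a replicate number marks a shared experiment was not tested. In a fit with a replicate block, 9 of the 112 calls were lost, the higher calls in *hecd-1(tm2371)* against wild-type were 8 and in the interaction 25, and no count moved by more than 1.5 times.

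Scaling shifted the median log2 fold change of all genes, which in the interaction was -0.19 as deposited, -0.07 with median-of-ratios scaling and 0.19 with quantile normalization, while that of the 34 genes was 0.37, 0.51 and 0.44. Of all genes called, the share that was higher as deposited, with median-of-ratios scaling and with quantile normalization was 87.3%, 64.3% and 38.2% in *ivd-1(tm6784)* worms, 76.6%, 54.3% and 34.6% in *bcat-1(hh58)*, 69.0%, 56.3% and 44.2% in the double mutant and 66.1%, 45.8% and 41.1% in *hecd-1(tm2371)*, each against wild-type. It was 48.0%, 45.0% and 59.1% for the double mutant against *ivd-1(tm6784)*, 16.8%, 40.8% and 64.5% against *bcat-1(hh58)*, 54.7%, 50.3% and 35.5% for *ivd-1(tm6784)* against *hecd-1(tm2371)*, and 25.7%, 45.0% and 68.7% in the interaction. Under both scalings 33 of the 34 genes stayed below 0 in *ivd-1(tm6784)* against wild-type, 32 in *bcat-1(hh58)* (30 as deposited), and 33 above 0 in *hecd-1(tm2371)* (34 as deposited). In the double mutant 20 and 25 lay above 0 (27 as deposited). These signs alone do not set the 34 genes apart, because quantile normalization moved the median of all genes below 0 too. For *bcat-1(hh58)* it left medians of -0.141 for the 34 genes and -0.136 for all genes, nearly the same. The *ivd-1(tm6784)* medians were then -0.20 and -0.10. Median-of-ratios scaling gave -0.23 and 0.05 for *bcat-1(hh58)*, and -0.24 and 0.04 for *ivd-1(tm6784)*. Without read counts, the precision of low genes such as *cki-1* and *cyd-1* is known only from the spread of 4 replicates.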
